A study of Mus musculus with 24 samples.

Results

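The 9 genes of drug and retinoid metabolism described here are Cyp1a1, Cyp1b1, Cyp26b1, Fmo1, Fmo2, Aldh1a1, Ephx1, Gstm1 and Inmt. They are 9 of 34844 gene names on the array and are read by 12 probes, every probe whose gene name in the scanner files is one of the 9. The genes were selected on their signal difference between doxorubicin and PBS in wild-type cells at 72 h, so their values at 72 h are given as a description with no test, and for them only the 16 h arrays are tested. The study injected mice intraperitoneally with doxorubicin at 25 mg/kg or with PBS, removed the hearts 16 h or 72 h later, isolated cardiomyocytes on a Langendorff apparatus and hybridised 100 ng of their RNA to a single-colour Agilent mouse array. Each of the 8 groups had 3 arrays: Top2b-deleted doxorubicin, Top2b-deleted PBS, wild-type doxorubicin and wild-type PBS at 16 h (replicates 1 to 3), and the same at 72 h (replicates 2 to 4). All mice were labelled male, 6 weeks old and 129SvEv/C57BL/6. Top2b-deleted mice lacked Top2b, which encodes topoisomerase IIβ, in the heart. The labels do not name the Cre line that made the deletion, and they do not say that each array was a separate animal, so p-values measure the spread between arrays.

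Oxidising enzymes act first on foreign compounds. Cytochromes P450 and flavin monooxygenases add oxygen, aldehyde dehydrogenases turn aldehydes into acids, epoxide hydrolase opens the reactive epoxides that P450 enzymes make, and glutathione transferases and methyltransferases attach a small group to the product. Cyp1a1 and Cyp1b1 are textbook targets of the aryl hydrocarbon receptor (AhR), which binds with its partner ARNT to a short DNA core, GCGTG. Aldh1a1 makes retinoic acid from retinaldehyde and Cyp26b1 degrades retinoic acid, so both also set retinoid levels. Endothelial cells are among the cells of the heart that can make Cyp1a1.

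Promoters of the 9 genes (250 bases before to 50 bases after the start, RefSeq, GRCm38.p6) were searched for GCGTG on both strands, because 2 of the 9 are AhR targets and differed in opposite directions at 72 h. The table held 11 promoters for 8 of the genes, and 3 genes had a match: Cyp1a1, Cyp1b1 and Gstm1. Of all 32851 promoters in the table, 32.4% held GCGTG. The NRF2-type core TGACNNNGC was in 12.4% of all promoters and in 0 of the 11. Gstm1 has 2 overlapping promoters in the table, both with the match, so that 4 promoters held it. For each of these 3 genes 1 promoter is printed 5′ to 3′ on the gene's strand, with the match in capitals; Cyp1b1 carries it on the opposite strand, read as CACGC.
Cyp1a1, chr9:57697363-57697662, plus strand: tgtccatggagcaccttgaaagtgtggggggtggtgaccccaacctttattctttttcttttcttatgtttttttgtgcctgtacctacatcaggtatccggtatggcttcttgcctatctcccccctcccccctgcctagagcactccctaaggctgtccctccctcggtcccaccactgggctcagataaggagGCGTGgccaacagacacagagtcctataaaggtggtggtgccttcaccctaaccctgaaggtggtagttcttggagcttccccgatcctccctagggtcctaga
Cyp1b1, chr17:79715012-79715311, minus strand: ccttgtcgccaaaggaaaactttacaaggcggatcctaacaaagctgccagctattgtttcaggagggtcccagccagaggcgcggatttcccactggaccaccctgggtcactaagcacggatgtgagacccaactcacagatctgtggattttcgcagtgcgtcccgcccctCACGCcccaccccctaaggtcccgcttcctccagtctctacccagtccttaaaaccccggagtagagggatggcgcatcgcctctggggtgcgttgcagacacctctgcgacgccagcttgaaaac
Gstm1, chr3:108017924-108018223, minus strand: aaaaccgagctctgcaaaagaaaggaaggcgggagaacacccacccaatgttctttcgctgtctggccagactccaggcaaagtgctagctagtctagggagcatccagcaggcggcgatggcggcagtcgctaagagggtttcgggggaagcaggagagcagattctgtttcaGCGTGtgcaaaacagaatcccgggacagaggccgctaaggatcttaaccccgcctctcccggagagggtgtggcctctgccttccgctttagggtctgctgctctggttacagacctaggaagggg
The matches begin 54, 76 and 76 bases before the start of Cyp1a1, Cyp1b1 and Gstm1. A match is a stretch of letters and not a shown binding site.

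Levels are log2 of the scanner's processed signal minus log2 of the array's 75th percentile, so that 1 unit is a 2-fold difference and 0 is the brightness of that percentile; levels are compared between arrays and not between probes. The 75th percentile was 146 to 282 intensity units and 42.9% to 52.6% of the probes on an array were well above background by the scanner's flag. Cardiomyocyte markers were bright on every array (mean log2 level 7.83 to 8.86 over 15 genes, led by Myl3, Actc1 and Myh6), and at 72 h they averaged 8.02, 7.83 and 8.19 in wild-type doxorubicin, against 8.49, 8.52 and 8.25 in wild-type PBS, with 0 of 15 past the threshold and 5 at an unadjusted p under 0.05 (limma). The highest Top2b level among Top2b-deleted arrays lay below the lowest among wild-type ones at both times. Its log2 level at 16 h averaged 3.02 ± 0.42 in Top2b-deleted and 4.31 ± 0.14 in wild-type doxorubicin arrays, and at 72 h 2.59 ± 0.47 and 3.32 ± 0.08 (SD, n = 3 each).

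Several arrays stood apart from their labels. The genotype field of 4 arrays at 16 h contradicts the title, and the title was used. Grouped by title, the Top2b level at 16 h was at most 3.34 in Top2b-deleted arrays and at least 4.03 in wild-type ones. On these 4 arrays Top2b thus went with the title. The Y-linked transcript Ddx3y was well above background on 7 arrays and not on the other 17, although all are labelled male. At 16 h those 5 arrays were Top2b-deleted doxorubicin replicate 1, wild-type doxorubicin replicate 1 and all 3 wild-type PBS replicates, so that wild-type doxorubicin replicates 2 and 3 differed from their controls in this as well as in treatment. At 72 h they were Top2b-deleted PBS replicate 3 and wild-type PBS replicate 4. Of 4 Esr1 probes 1 was well above background on all 12 Top2b-deleted arrays (log2 level 5.04 to 7.10) and on 6 of 12 wild-type arrays, while the other 3 were so on at most 1 array each. Its levels at 16 h were -5.43, 0.60 and 1.05 in wild-type doxorubicin and below background in all 3 wild-type PBS arrays. At 72 h they were 6.62, -2.06 and -4.37 in wild-type doxorubicin, against 8.41, 8.58 and -6.18 in wild-type PBS. Its part in the results was not tested, and values with and without such arrays are given for 72 h. The arrays of each time lay on 2 slides. At 16 h slide 2 held Top2b-deleted PBS replicate 3 and all Top2b-deleted doxorubicin arrays, and at 72 h it held replicate 4 of every group.

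Detection differed between the genes. Ephx1, Gstm1, Fmo2 and Aldh1a1 were well above background on 24 of 24 arrays with every probe. The brighter Fmo1 probe was also detected on 24 arrays and its second probe on 17. Cyp26b1 was detected on 23 arrays, Cyp1b1 on 18 (11 at 16 h and 7 at 72 h) and Inmt on 13 (2 at 16 h and 11 at 72 h). Cyp1a1 was detected on 4 arrays only: wild-type PBS replicate 1 at 16 h, and the 3 wild-type PBS arrays of 72 h. A gene entered the fit of a time if some group there had it detected on each of its 3 arrays, which left 7 of the 9 at 16 h (without Cyp1a1 and Inmt) and all 9 at 72 h.

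The probes are placed on mm9 by the scanner files. Cyp1a1 is read at chr9:57551535-57551594, Cyp1b1 at chr17:80106547-80106606, Cyp26b1 at chr6:84521952-84522011, Aldh1a1 at chr19:20717764-20717823, Inmt at chr6:55120770-55120829 and Fmo2 at chr1:164806827-164806886. Fmo1, a neighbour of Fmo2 on chromosome 1, has its brighter probe at chr1:164760037-164760096 and its second at chr1:164780212-164780271. Ephx1 has its brighter probe at chr1:182919689-182919748 and its second at chr1:182924124-182924183. Gstm1 has its second probe at chr3:107815595-107815654, while its brighter probe is annotated at chr5:117082490-117082549 although it carries the Gstm1 accession. Exon and UTR positions were not used here. Gstm1 lies in a family of close copies, and signal from relatives such as Gstm2 or Gstm3 on its probes was not tested; the same holds for Aldh1a1 and Aldh1a7.

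At 72 h, 8 of the 9 genes averaged higher after doxorubicin than after PBS in wild-type cells and Cyp1a1 averaged lower. In Top2b-deleted cells the same comparison gave log2 differences between -0.06 and 1.03 for the 8 genes detected there, each read on its brightest probe. The wild-type doxorubicin and PBS arrays did not overlap for 8 of the 9 genes, Fmo1 being the exception; this is the comparison that picked the 9. Across all 19672 genes the arrays of these groups did not overlap for 26%, and 530 genes, or 2.69%, passed the adjusted threshold. The median log2 difference was 0.49 over the 8 genes detected in Top2b-deleted cells and 2.84 over the 9 in wild-type cells, against -0.01 and -0.08 over all genes.

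**Figure D1:**
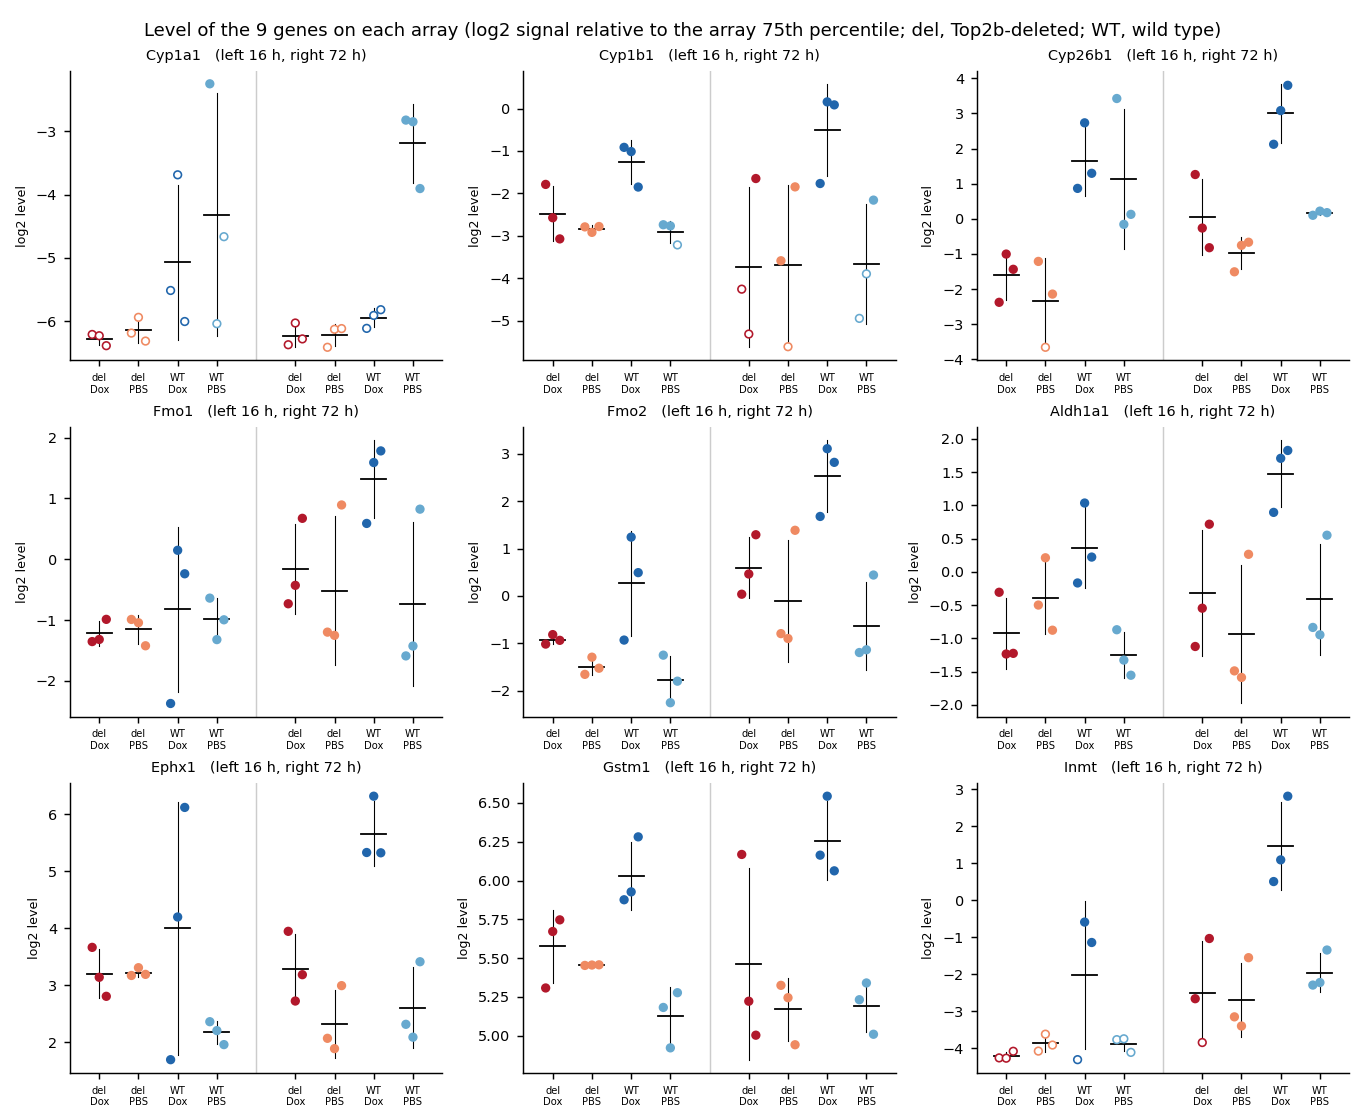
Log2 level of each gene on every array, 16 h at the left and 72 h at the right of each panel; filled points are well above background, open points are not, and bars are the mean ± SD of 3 arrays. At 72 h wild-type doxorubicin has the highest mean for every gene except Cyp1a1, which is then detected in wild-type PBS alone.

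Cyp1a1 and Cyp1b1, the AhR targets, differed in opposite directions in wild-type cells. Cyp1a1 was -6.11, -5.91 and -5.82 in wild-type doxorubicin arrays, none well above background, against -2.82, -2.85 and -3.91 in wild-type PBS arrays, all of them detected. With the undetected arrays set at the detection floor, Cyp1a1 was at least 1.52-fold lower after doxorubicin. In Top2b-deleted cells it was undetected on all 6 arrays of 72 h, so that Top2b-deleted PBS was at least 1.7-fold lower than wild-type PBS and no doxorubicin effect could be read there. Wild-type PBS was the only group through which Cyp1a1 met the detection rule, so these lower values are not independent of that rule. Cyp1b1 was -1.77, 0.16 and 0.09 in wild-type doxorubicin, against -4.95, -3.90 and -2.16 in wild-type PBS, where 1 array of 3 was detected. The log2 difference was 3.16 ± 1.15 (SE) and rests on PBS values that are mostly below background, so no fold is given; it was 1.41 with normexp and quantile normalization. In Top2b-deleted cells Cyp1b1 was -4.26, -5.32 and -1.65 after doxorubicin and -3.59, -5.61 and -1.85 after PBS: the groups overlapped, and the replicate 4 arrays of both were the brightest.

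The retinoid pair, Aldh1a1 and Cyp26b1, was higher in wild-type cells after doxorubicin. Cyp26b1 was 2.12, 3.08 and 3.80 in wild-type doxorubicin, against 0.10, 0.22 and 0.18 in wild-type PBS, a log2 difference of 2.84 ± 0.53 (7.14-fold). In Top2b-deleted cells it was 1.26, -0.26 and -0.82 after doxorubicin and -1.51, -0.75 and -0.67 after PBS, with 1 doxorubicin array inside the PBS range. Aldh1a1 was 0.89, 1.71 and 1.83 in wild-type doxorubicin, against -0.84, -0.95 and 0.55 in wild-type PBS, a log2 difference of 1.89 ± 0.62 (3.70-fold). All 3 doxorubicin arrays lay above PBS, and the brightest PBS array was replicate 4. Top2b-deleted arrays held Aldh1a1 at -1.12, -0.55 and 0.72 after doxorubicin and -1.49, -1.59 and 0.26 after PBS, and both of these groups were highest at replicate 4.

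Among the flavin monooxygenases, Fmo2 differed more than Fmo1 in wild-type cells. Fmo2 was 1.68, 3.11 and 2.82 in wild-type doxorubicin, against -1.20, -1.14 and 0.44 in wild-type PBS (log2 difference 3.17 ± 0.68, 8.99-fold). Fmo1 was 0.59, 1.59 and 1.78, against -1.59, -1.43 and 0.82 (2.05 ± 0.75, 4.15-fold), with PBS replicate 4 above doxorubicin replicate 2. Top2b-deleted arrays ranged for Fmo2 from 0.04 to 1.29 after doxorubicin and from -0.90 to 1.39 after PBS. For Fmo1 they ranged from -0.73 to 0.67 after doxorubicin and from -1.25 to 0.89 after PBS. The second Fmo1 probe read -1.56, -0.46 and -0.48 in wild-type doxorubicin, against -4.15, -2.93 and -1.47 in wild-type PBS, and it too had PBS replicate 4 above doxorubicin replicate 2.

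Of the enzymes that act on the oxidised products, Ephx1 (microsomal epoxide hydrolase) read 5.33, 6.32 and 5.32 on its brighter probe in wild-type doxorubicin, against 2.31, 2.09 and 3.41 in wild-type PBS. The log2 difference was 3.05 ± 0.46 (8.29-fold), and the groups lay apart. Top2b-deleted arrays read 3.95, 2.72 and 3.19 after doxorubicin and 2.07, 1.89 and 2.99 after PBS, overlapping by 1 array. The second Ephx1 probe disagreed: it read 2.85, 3.04 and 2.72 in wild-type doxorubicin, against 4.11, 4.45 and 0.92 in wild-type PBS. The 2 PBS arrays that are high on this probe, replicates 2 and 3, are those with the brightest Esr1 probe, and their part in the disagreement was not tested. In Top2b-deleted cells the second probe ranged from 1.69 to 1.94 after doxorubicin and from 2.13 to 2.45 after PBS. It was lower there after doxorubicin (log2 difference -0.47), where the brighter probe averaged higher (0.97). The Ephx1 result is therefore a result of 1 probe; with the probes averaged, the wild-type log2 difference was 1.38.

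**Figure D2:**
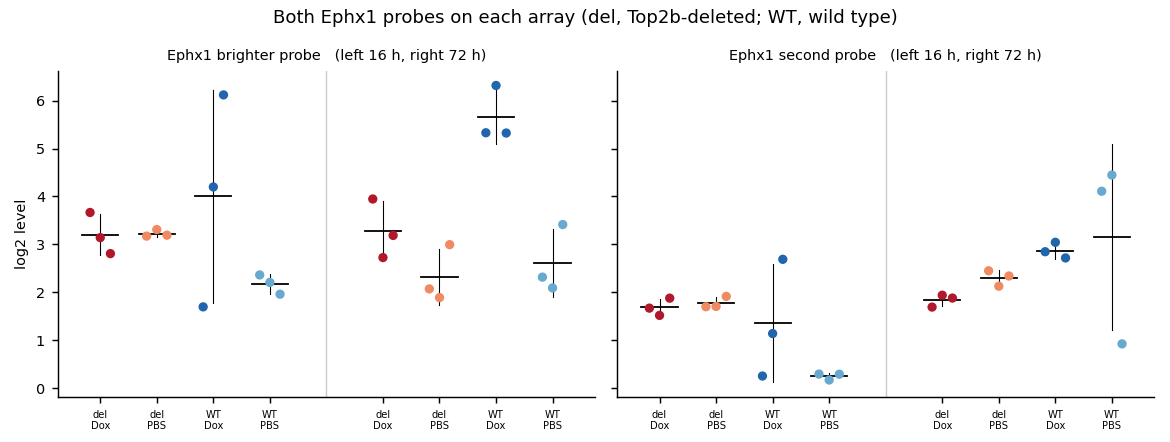
Log2 level on every array of the brighter Ephx1 probe (left) and of the second (right), with the mean ± SD of 3 arrays per group. The brighter probe is highest in wild-type doxorubicin arrays at 72 h (5.32 to 6.32), whereas on the second probe 2 wild-type PBS arrays (4.11 and 4.45) lie above them.

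Gstm1, a mu-class glutathione transferase, read 6.16, 6.54 and 6.06 in wild-type doxorubicin, against 5.23, 5.34 and 5.01 in wild-type PBS (1.06 ± 0.28, 2.09-fold). Its second probe, on chromosome 3, read 4.90, 5.79 and 5.18 against 3.85, 4.19 and 4.02, so both probes separated the groups. In Top2b-deleted cells 1 doxorubicin array, replicate 2, was as high as the wild-type ones at 6.17, while the others read 5.22 and 5.004 beside PBS values of 5.32, 5.25 and 4.94. Inmt, a methyltransferase that acts on indoleamines and other small amines, was also separate in wild-type cells. It was 0.51, 1.09 and 2.81 after doxorubicin, against -2.29, -2.22 and -1.34 after PBS (3.42 ± 0.78), with every array detected. Top2b-deleted arrays read -2.66, -3.84 and -1.03 after doxorubicin and -3.15, -3.39 and -1.55 after PBS, and overlapped.

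Set against wild-type cells after doxorubicin, Top2b-deleted cells after doxorubicin averaged lower at 72 h for the 8 genes that either group detected, with a median log2 difference of -2.16 (all genes 0.09) and a range from -3.98 for Inmt to -0.79 for Gstm1. Neither group detected Cyp1a1. The groups did not overlap for 5: Aldh1a1, Cyp26b1, Ephx1, Fmo2 and Inmt. In that comparison the arrays did not overlap for 27% of all genes. Under PBS the groups lay apart for 2, Cyp1a1 and Cyp26b1, both lower in Top2b-deleted arrays, and for 19.6% of all genes, so that 2 of 9 is near the share over all genes. Cyp1a1 met the detection rule at 72 h through wild-type PBS alone, so its separation is not independent of that rule. The genotype comparisons share their arrays with the doxorubicin comparisons.

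**Figure D3:**
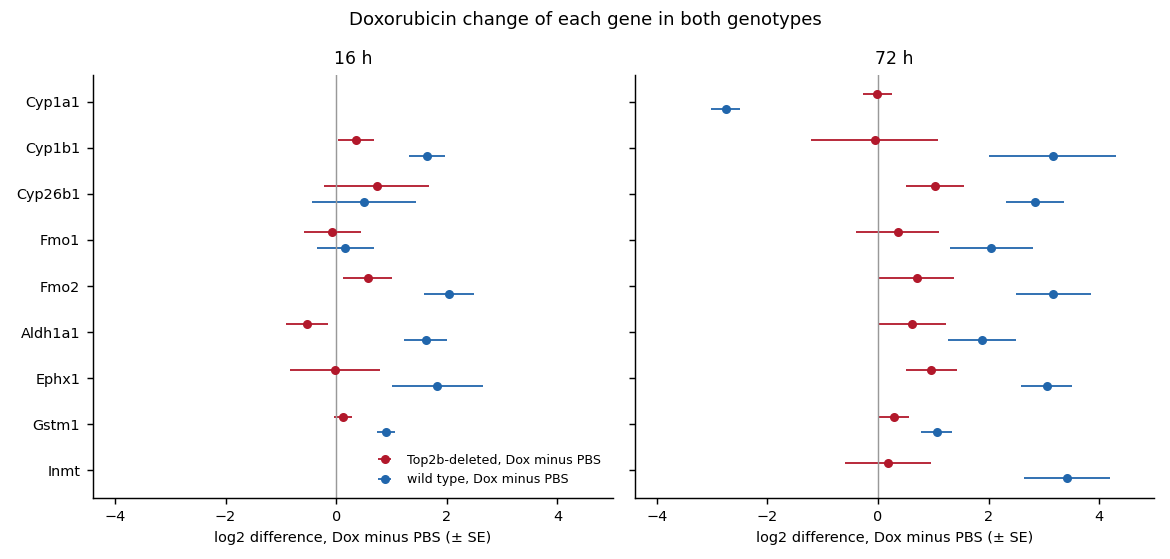
Log2 difference, doxorubicin minus PBS, with its SE from the limma fit, for each gene in Top2b-deleted (red, upper) and wild-type (blue, lower) cells at 16 h and 72 h; Cyp1a1 and Inmt were not fitted at 16 h, and the 72 h Cyp1a1 points use signals below background. At 72 h the wild-type points lie between 1.06 and 3.42, and Cyp1a1 at -2.75, while the Top2b-deleted points of the 8 detected genes lie between -0.06 and 1.03.

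The slide moved with several of these values. At 72 h replicate 4 of wild-type PBS, on slide 2, was the highest of its group for Cyp1b1, Fmo1, Fmo2, Aldh1a1, Ephx1 and Inmt. That array was also the only wild-type array of 72 h with the Y-linked transcript. It was the only wild-type PBS array of that time without the Esr1 probe signal. Slide, Y-linked status and Esr1 signal thus coincide on it, and their parts were not tested. Endothelial markers (20 of 20 genes fitted, led by Fabp4 and Ly6c1) moved the same way: their mean log2 level was 2.41, 3.13 and 3.21 in wild-type doxorubicin, against 0.80, 0.78 and 2.92 in wild-type PBS. Of these 20 markers 0 passed the threshold and 9 had an unadjusted p under 0.05 (limma). In bulk RNA more endothelial cells and more RNA per endothelial cell cannot be told apart. Within slide 1 (2 arrays against 2) the endothelial mean differed by 1.98 between doxorubicin and PBS, and within slide 2 (1 against 1) by 0.29. The neutrophil mean differed by 2.95 and 3.08 on slides 1 and 2, and the hepatocyte mean by 1.18 and 1.09. The log2 differences of the genes on slide 2, in the comparison that picked them, were 4.15 for Inmt, 3.63 for Cyp26b1, 2.38 for Fmo2, 2.25 for Cyp1b1, 1.91 for Ephx1, 1.27 for Aldh1a1, 1.05 for Gstm1 and 0.96 for Fmo1. Cyp1a1 was undetected in the doxorubicin arrays of both slides, which leaves no exact difference. The part of these markers in the values was not tested. For Fmo1, Fmo2, Cyp1b1, Aldh1a1 and Ephx1 the difference was smaller on slide 2 than on slide 1, and for Inmt and Cyp26b1 it was larger. Slide 2 has 1 array a group and no spread.

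**Figure D4:**
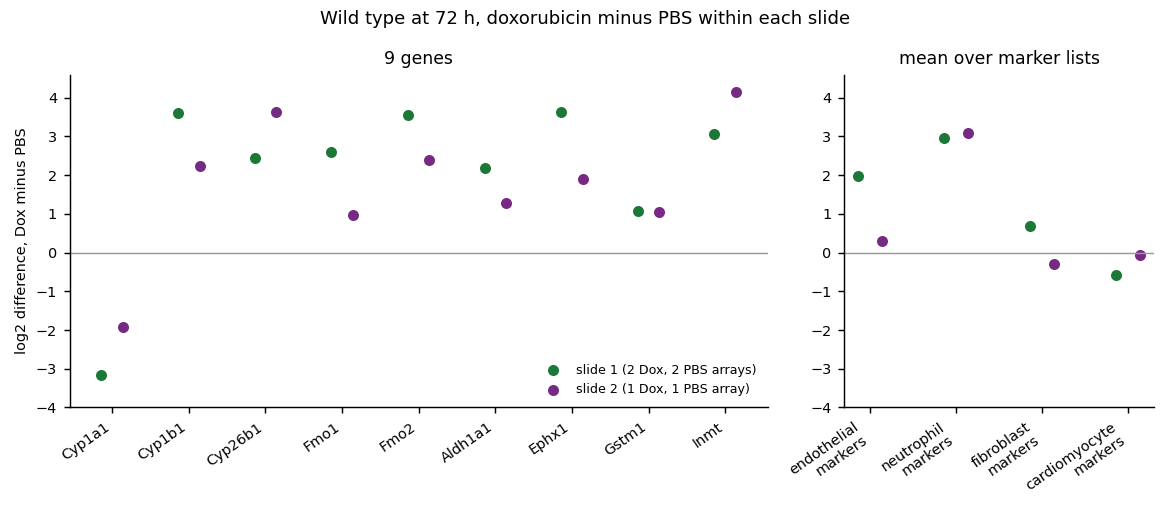
Log2 difference, doxorubicin minus PBS, in wild-type cells at 72 h within slide 1 (green, 2 arrays against 2) and within slide 2 (purple, 1 against 1), for the 9 genes (left) and for the mean of 4 marker lists (right). The Cyp1a1 points use doxorubicin signals below background. On slide 2 the Inmt difference is 4.15 and that of Fmo1 0.96, and the endothelial mean differs by 1.98 on slide 1 and 0.29 on slide 2.

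Markers of other cells moved with the treatment too. Neutrophil markers (6 of 11 fitted at 72 h) had a mean log2 level of -0.06, 1.34 and 1.37 in wild-type doxorubicin, against -2.49, -2.14 and -1.72 in wild-type PBS. S100a8, S100a9 and Retnlg rose, while Csf3r, Ly6g and Camp, the 3 brightest, did not pass. S100a8 and Retnlg were well above background on 3 of the 12 arrays each, the least that the detection rule allows. Their calls and their part in the mean are therefore not independent of that rule. Ngp, Ltf, Mmp8, Mmp9 and Cxcr2 were well above background on no array. Macrophage markers (12 of 17 fitted) ranged from -0.44 to 1.59 after doxorubicin and from -0.75 to 1.48 after PBS in wild-type cells, and fibroblast markers (20 of 21) from 1.03 to 1.53 and from 0.32 to 1.84. Schwann and mesothelial markers (6 of 9 fitted) averaged -0.87, -1.12 and -1.83 in wild-type doxorubicin, against -2.55, -2.60 and -1.05 in wild-type PBS. Of these 6 markers 0 passed and 3 had an unadjusted p under 0.05 (limma). Of the hepatocyte markers, Alb, Apoa1, Fgb and Hnf4a were well above background on no array, and 1 of the 7 fitted at 72 h, Ttr, rose, with 4 at an unadjusted p under 0.05 (limma). The mean of these 7 was -0.38, 0.22 and 0.35 in wild-type doxorubicin, against -1.20, -1.33 and -0.74 in wild-type PBS, with no overlap. Over the 12 arrays of 72 h this mean correlated with Fmo2 at r = 0.964, Aldh1a1 at 0.949, Fmo1 at 0.933, Cyp1b1 at 0.932, Inmt at 0.925 and Ephx1 at 0.879. It correlated less with Cyp26b1 (0.762), Gstm1 (0.554) and Cyp1a1 (-0.332). Other lists correlated as highly with some genes. The endothelial mean had r = 0.981 with Fmo1 and 0.949 with Aldh1a1, but 0.307 with Gstm1. The neutrophil mean had 0.956 with Ephx1 and 0.935 with Cyp26b1, but 0.790 with Fmo1. The cardiomyocyte mean correlated with Ephx1 at -0.903. These points share arrays, slides and scaling, and they include the comparison that picked the genes. The part of these markers in the results was not tested. The wild-type arrays could also be parted by the Esr1 probe. Where it was bright (doxorubicin replicate 2 against PBS replicates 2 and 3) the median log2 difference of the 9 genes was 2.10, and where it was not (doxorubicin replicates 3 and 4 against PBS replicate 4) it was 2.28. These are values of the comparison that picked the genes and were not tested.

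At 16 h, the time that did not pick the genes, 4 of the 7 fitted genes rose in wild-type cells after doxorubicin (limma, Benjamini-Hochberg over all genes, threshold 0.05): Aldh1a1, Cyp1b1, Fmo2 and Gstm1. Of all 18751 genes fitted, 27.8% passed in this comparison and 13.7% in the upward direction. The median log2 difference of the 7 was 1.61, against -0.02 over all genes. The doxorubicin and PBS arrays of the 4 did not overlap, whereas those of Ephx1, Fmo1 and Cyp26b1 did; among all genes 36.7% had arrays that did not overlap.

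Gstm1 had the narrowest spread of the 4: 5.88, 5.93 and 6.28 after doxorubicin, against 5.18, 4.92 and 5.28 after PBS, a log2 difference of 0.90 ± 0.16 (1.87-fold, limma adjusted p = 0.00233). Cyp1b1 read -0.91, -1.01 and -1.85, against -2.74, -2.77 and -3.21, the last of them not well above background (1.65 ± 0.32, 3.13-fold, limma adjusted p = 0.00427). With normexp and quantile normalization the Cyp1b1 difference was 0.67, still past the threshold, and in a fit of all 24 arrays it did not pass (limma adjusted p = 0.194). Fmo2 read -0.93, 1.24 and 0.49, against -1.25, -2.26 and -1.80 (2.04 ± 0.45, 4.11-fold, limma adjusted p = 0.00769). Aldh1a1 read -0.17, 1.04 and 0.22, against -0.87, -1.33 and -1.56 (1.61 ± 0.38, 3.06-fold, limma adjusted p = 0.0108). Higher values in 3 of 3 doxorubicin arrays than in any PBS array held for each of these.

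The remaining genes were split by 1 array. Ephx1 read 1.69, 4.20 and 6.12 after doxorubicin, against 2.36, 2.20 and 1.96 after PBS (1.83 ± 0.82, limma adjusted p = 0.121), so that replicate 1 was the lowest of the 6 and replicate 3 the highest. Fmo1 read -2.37, 0.15 and -0.24, against -0.64, -1.32 and -0.996 (0.16 ± 0.52, limma adjusted p = 0.844). Inmt was detected on 2 of the 12 arrays of 16 h, doxorubicin replicates 2 and 3, at -0.59 and -1.14, while replicate 1 read -4.30 and the PBS arrays -3.76, -3.74 and -4.11. Doxorubicin replicate 1 is the array of that group with the Y-linked transcript and without the Esr1 probe signal. Without it, 6 of the 7 fitted genes passed. Against the Y-linked PBS arrays, replicate 1 alone gave a log2 difference of -1.39 for Fmo1, 0.84 for Fmo2, 1.08 for Aldh1a1 and 1.99 for Cyp1b1; 1 array has no spread of its own, and these values carry no test. Cyp26b1 read 0.87, 2.73 and 1.30 after doxorubicin, against 3.43, -0.16 and 0.13 after PBS (0.50 ± 0.95, limma adjusted p = 0.73), where PBS replicate 1 was the brightest of all; the same array was the only one of 16 h to detect Cyp1a1.

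Markers were read at 16 h as well. Neutrophil markers (4 of 11 fitted) averaged 1.92, 1.49 and 0.33 in wild-type doxorubicin, against -0.49, -1.72 and -1.21 in wild-type PBS. Of these markers 3 rose, where 13.7% of all genes rose. Besides Csf3r, Ly6g and S100a9, the remaining fitted marker was well above background on 3 of the 12 arrays, the least that the detection rule allows. Any call of it and its part in the mean are therefore not independent of that rule. Endothelial markers averaged 1.79 to 2.41 after doxorubicin and 1.63 to 2.27 after PBS, with 2 of 20 higher and 2 lower past the threshold. Of the fibroblast markers 7 of 20 fell, and of the smooth muscle and pericyte markers 5 of 14, where 14.1% of all genes fell. Hepatocyte markers averaged -0.07, 0.05 and 0.21 after doxorubicin and -0.48, -0.77 and -0.99 after PBS, with no overlap, and Ttr alone passed (1 of 6 fitted, higher), and of the Schwann and mesothelial markers 0 of 7 passed and 0 had an unadjusted p under 0.05 (limma). Their part in the 4 calls was not tested. All wild-type arrays of 16 h lay on slide 1. Set against wild-type doxorubicin, Top2b-deleted doxorubicin arrays had 10 of 20 endothelial markers lower and 0 higher past the threshold. Of the fibroblast markers 8 of 20 were higher and 1 lower. Among all genes 31.3% passed there, 14.4% lower. The endothelial mean correlated with Cyp26b1 at r = 0.85 and with Gstm1 at 0.145 over the 12 arrays of 16 h. The part of these markers in the genotype calls was not tested.

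In Top2b-deleted cells 0 of the 7 genes passed at 16 h, and 0 had an unadjusted p under 0.05. Over all genes 0 of 18751 passed (0%) and 791 had an unadjusted p under 0.05, so the comparison called nothing anywhere (limma). The log2 differences lay between -0.53 ± 0.38 for Aldh1a1 and 0.73 ± 0.95 for Cyp26b1, with 0.35 ± 0.32 for Cyp1b1, 0.57 ± 0.45 for Fmo2, 0.12 ± 0.16 for Gstm1, -0.02 ± 0.82 for Ephx1 and -0.07 ± 0.52 for Fmo1. Fmo2 was the only one whose groups did not overlap, at -1.02, -0.82 and -0.94 after doxorubicin, against -1.66, -1.29 and -1.53 after PBS; 17.8% of all genes had arrays that did not overlap here.

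The doxorubicin response differed between the genotypes at 16 h for 2 of the 7 genes. The Top2b-deleted response minus the wild-type response was -2.15 ± 0.54 for Aldh1a1 (limma adjusted p = 0.0305) and -0.78 ± 0.22 for Gstm1 (limma adjusted p = 0.0477), where 11.4% of all genes passed and 5.27% with a negative value. With slide as a term neither passed (limma adjusted p = 0.222 and 0.205, with log2 differences of -1.66 and -0.78). Leaving out single arrays gave between 0 and 4 genes here, the 4 without wild-type doxorubicin replicate 1. After doxorubicin, 4 genes were lower in Top2b-deleted than in wild-type cells, against 31.3% of all genes passing in either direction and 14.4% lower: Cyp26b1 (-3.24 ± 0.95), Aldh1a1 (-1.29 ± 0.38), Cyp1b1 (-1.22 ± 0.32) and Gstm1 (-0.45 ± 0.16). These groups lay on different slides, and with slide as a term 0 of 7 passed and 0 had an unadjusted p under 0.05 (limma). Only Top2b-deleted PBS had arrays on both slides at 16 h, so the slide term rests on that group alone. The missing calls with this term therefore do not show that a difference is absent. Without wild-type doxorubicin replicate 1 all 7 passed, and without wild-type doxorubicin replicate 2 or Top2b-deleted doxorubicin replicate 3 none did. Under PBS 1 gene passed, Cyp26b1, at -1.21, -3.66 and -2.14 in Top2b-deleted arrays, against 3.43, -0.16 and 0.13 in wild-type arrays (-3.47 ± 0.95, limma adjusted p = 0.0385; 12.5% of all genes passed, 5.68% lower). Within slide 1 it was -3.57 (limma adjusted p = 0.164), and without wild-type PBS replicate 1 it was -2.32 and did not pass. Of the 7 genes 5 averaged higher in Top2b-deleted PBS and 2 lower. Ephx1 averaged 3.22 ± 0.07 there, against 2.17 ± 0.20 in wild-type PBS (SD), and did not pass (1.05 ± 0.82, SE, limma adjusted p = 0.444). That SE pools all groups, and wild-type doxorubicin had an SD of 2.22. The second Ephx1 probe averaged 1.77 ± 0.12 and 0.25 ± 0.07 (SD).

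Other genes of these families were counted over 10 lists of 155 further genes. In wild-type cells at 16 h 27 of 109 fitted genes passed, 15 higher and 12 lower (median log2 difference 0.03, all genes -0.02), beside 27.8% of all genes passing, 13.7% higher and 14.1% lower. At 72 h 8 of 113 passed, 6 higher and 2 lower (median 0.20, all genes -0.08), beside 2.69% of all genes. More of them passed there with slide or replicate number as a block. A gene short of the threshold at 72 h is therefore not shown to be unchanged. In Top2b-deleted cells 0 passed at either time, with 6 of 109 and 3 of 113 at an unadjusted p under 0.05 (limma); there too 0 of 19672 genes passed at 72 h.

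The glutathione transferases held 5 of the 6 higher calls of 72 h, out of 21 fitted genes besides Gstm1. Of all genes 2.69% passed there in either direction, and this count too is a description. Gsta1 and Gsta2, alpha-class enzymes that conjugate lipid peroxidation products, rose by 2.48 ± 0.50 and 2.52 ± 0.54 (limma adjusted p = 0.0382 and 0.0432). Their near-identical sequences mean that the probes may share signal. Gstm3 and Gstm4, mu-class neighbours of Gstm1, rose by 1.14 ± 0.22 and 1.12 ± 0.23 (limma adjusted p = 0.0316 and 0.0411), and the theta-class Gstt2 by 0.85 ± 0.19 (limma adjusted p = 0.0481). Gstm2 (0.70 ± 0.22, limma adjusted p = 0.0987), Gsta3 (2.66 ± 0.66, limma adjusted p = 0.0586) and Gsta4 (0.34 ± 0.19, limma adjusted p = 0.295) did not pass. At 16 h 5 of 21 had risen in wild-type cells, where 13.7% of all genes rose: Gsta3 (2.07 ± 0.47), Gsta4 (0.45 ± 0.15), Gstm2 (0.70 ± 0.18), Gstm3 (0.77 ± 0.15) and Gstm4 (0.72 ± 0.18). Gstm3 and Gstm4 thus passed at both times.

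**Figure D5:**
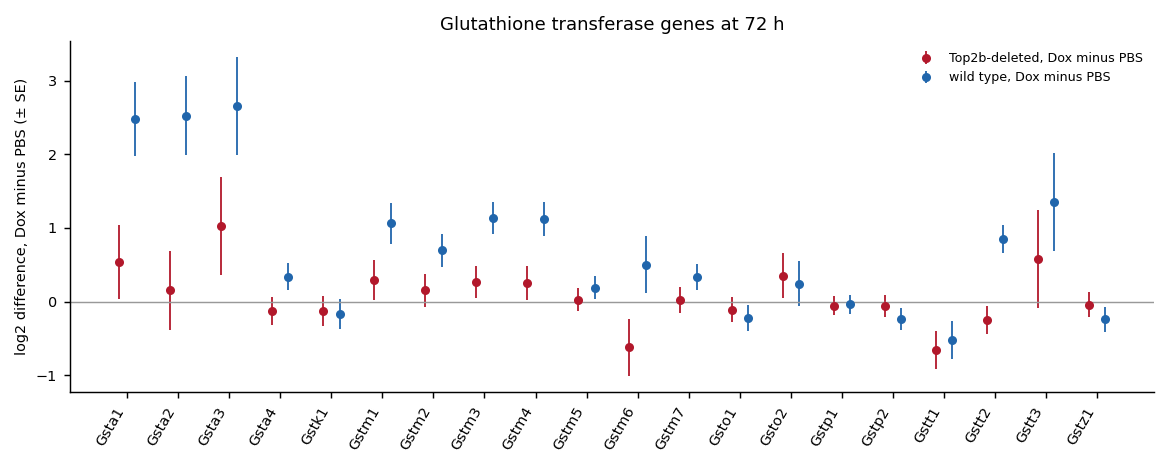
Log2 difference, doxorubicin minus PBS, at 72 h with its SE for each fitted gene named Gst, in Top2b-deleted (red, left) and wild-type (blue, right) cells. In wild-type cells the alpha-class Gsta1, Gsta2 and Gsta3 lie between 2.48 and 2.66 and the mu-class Gstm1, Gstm3 and Gstm4 between 1.06 and 1.14, while the pi-class Gstp1 and Gstp2 lie at -0.04 and -0.23.

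Among the flavin monooxygenases Fmo5 rose at 72 h in wild-type cells (1.10 ± 0.25, limma adjusted p = 0.0497) and differed by -0.22 ± 0.16 at 16 h (limma adjusted p = 0.34). Of the 3 epoxide hydrolase genes fitted beside Ephx1 at 72 h none passed, Ephx2, the soluble enzyme, differing by 0.32 ± 0.23. Of 16 aldehyde dehydrogenases at 72 h 0 passed (3 at an unadjusted p under 0.05, limma). At 16 h 3 of 15 fell, where 14.1% of all genes fell: Aldh1a2, which also makes retinoic acid (-1.44 ± 0.18, limma adjusted p = 0.000411), the mitochondrial Aldh18a1 of proline synthesis (-1.61 ± 0.23) and Aldh1b1 (-0.65 ± 0.16). Aldh1a2 thus fell at the time when Aldh1a1 rose.

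In the retinoid list 6 of 17 passed at 16 h in wild-type cells, 1 higher and 5 lower, against 27.8% of all genes. Rdh11, a retinol dehydrogenase, rose by 1.08 ± 0.17 (limma adjusted p = 0.00144), while the receptors Rara (-1.09 ± 0.23) and Rxrg (-1.20 ± 0.35) fell. Rarb, a retinoic acid target, differed by -1.16 ± 0.51 (limma adjusted p = 0.118) and Dhrs3 by -0.32 ± 0.23 (limma adjusted p = 0.33). At 72 h Rxrg was the 1 of 17 that passed (-0.997 ± 0.196, limma adjusted p = 0.0347). Ppara, a lipid-sensing receptor that pairs with RXR, fell at both times, by -0.97 ± 0.31 at 16 h and -0.99 ± 0.21 at 72 h (limma adjusted p = 0.0414 and 0.0419).

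In the AhR list Ahr itself was the 1 of 9 fitted genes that rose at 16 h in wild-type cells, by 1.80 ± 0.25 (3.48-fold, limma adjusted p = 0.000694), and in Top2b-deleted cells it differed by -0.11 ± 0.25. At 72 h it differed by 1.97 ± 0.49 in wild-type cells (limma adjusted p = 0.0578), with no overlap between the groups. Its repressor Ahrr (-1.63 ± 0.78 at 16 h, -0.21 ± 0.27 at 72 h), its partner Arnt (-0.41 ± 0.20, -0.06 ± 0.23) and its target Tiparp (0.88 ± 0.40, -0.06 ± 0.29) did not pass at either time. Nqo1, a quinone reductase and a target of both AhR and NRF2, did not pass (0.15 ± 0.15, 0.69 ± 0.22). Por, which feeds electrons to the P450 enzymes, differed by 0.27 ± 0.35 and 0.16 ± 0.36. Cyp1a2 did not meet the detection rule at either time.

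Of the other P450 genes 2 rose and 3 fell at 16 h in wild-type cells out of 23, against 27.8% of all genes, and 0 of 26 passed at 72 h (11 at an unadjusted p under 0.05, limma). Cyp51, of sterol synthesis, fell by 0.89 on the log2 scale and Cyp4f16 by 0.72 (SE 0.18 and 0.16). Small-molecule methyltransferases, the class of Inmt, rose for 4 of 9 genes at 16 h, where 13.7% of all genes rose, led by Pnmt, which makes adrenaline from noradrenaline (3.46 ± 0.20, limma adjusted p = 1.04e-05). None of the 9 passed at 72 h (4 at an unadjusted p under 0.05), and Nnmt did not meet the detection rule. Among the conjugating enzymes Sult1a1, a phenol sulfotransferase, rose at 16 h by 1.81 ± 0.36, and Nat2, an arylamine acetyltransferase, by 0.79 ± 0.14.

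The genes with the most similar profile were sought for the 7 members fitted at both times, by Pearson correlation of log2 levels over the 24 arrays after subtracting each time's mean, among 17965 genes. All points share the same arrays, slides and scaling. The nearest to Gstm1 was Gstm4 (r = 0.923), followed by 4930415C11Rik (0.923), and the nearest to Aldh1a1 were C1ra (0.963) and Dpep1 (0.948). Dpep1 was also nearest to Fmo2 (0.927), followed by Xdh (0.924). Fmo1 was nearest to Bmp6 (0.952) and Gimap1 (0.950), and Ephx1 to Zc3hav1 (0.909) and Pir (0.897). Cyp26b1 was nearest to Klk1b16 (0.869) and Klk1b5 (0.866), kallikrein-family genes that resemble each other. Cyp1b1 was nearest to an interval probe without a gene name (0.919) and to Enc1 (0.915).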

How the data were processed

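RNA of isolated cardiomyocytes was measured on 24 single-colour Agilent arrays, 3 in each of 8 groups. Per the file headers, the authors' scanner files hold spot intensity processed by Feature Extraction 10.7.3.1 (mm9 annotation): background-subtracted and detrended within the array, and not scaled between arrays. The deposited value table holds the ratio of that signal to the array median, as a comparison of its columns with the scanner files showed (SD of the log2 difference at most 1.54e-06). Its columns have a median of 1 by construction. The number of arrays limits the precision.

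Control spots and outlier spots (89 to 277 an array) were left out, and 0 spots were saturated. Log2 processed signal minus the array's 75th percentile was averaged over spots of a probe. A probe was kept if well above background, by the scanner's flag, on all 3 arrays of a group of that time, and the brightest kept probe stood for the gene. The 12 arrays of each time were fitted together (limma 3.58.1, R 4.3.3, residual df 8) with no covariate, and p-values were Benjamini-Hochberg adjusted over 18751 genes at 16 h and 19672 at 72 h. The fitting code was tested on simulated data. Tables and figures used Python 3.11.15, numpy 2.4.6, pandas 2.3.3 and matplotlib 3.10.9.

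"At least" folds set an undetected group at the lowest signal well above background on each array. Groups follow the sample titles. The members, the pathway and marker lists and the tests were chosen with earlier results of these data known. Besides the 9 genes, the text names up to 6 pathway genes per direction with the smallest adjusted p in each doxorubicin comparison, a fixed list around AhR, retinoids and the same enzyme families, the 2 genes most like each member, the 3 brightest markers of a list and Top2b. Gsta3, Gstp1, Gstp2, the 16 h values of Gstm4, Rxrg and Ppara, the other markers named, Ddx3y and Esr1 fall outside that rule and were chosen after their values were seen. Alternatives were normexp (offset 50) with quantile normalization, the deposited table, no filter, slide or replicate number as a block, the other genotype label, Y-linked status, probe averages, all 24 arrays in one fit and leaving out each array. Contrasts within 1 Y-linked status or 1 slide, and the split by the Esr1 probe, were added after seeing the data. Some genes of the fixed list are not reported here.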

Additional observations from a re-analysis of the deposited data

Results flagged for a closer look

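The doxorubicin response at 16 h (log2 difference against PBS) differed between Top2b-deleted and wild-type cells, by limma's interaction term, for 9 of the 38 named genes fitted at 16 h, beside 11.4% of all genes. Of the 9, 2 are members; the other 7 were named for a small adjusted p in the wild-type doxorubicin comparison, whose arrays the interaction shares, so their count is not independent support. The values are Top2b-deleted minus wild type. Pnmt had -3.40 (limma adjusted p = 0.000349), Aldh1a1 -2.15 (limma adjusted p = 0.0305), Ahr -1.91 (limma adjusted p = 0.00886) and Rdh11 -1.19 (limma adjusted p = 0.0137). Gstm3 had -0.88 (limma adjusted p = 0.0288) and Gstm1 -0.78 (limma adjusted p = 0.0477). Values above 0, for genes that fell in wild-type cells, were 1.63 for Aldh18a1 (limma adjusted p = 0.0125), 1.16 for Cyp51 (limma adjusted p = 0.0182) and 0.87 for Cyp4f16 (limma adjusted p = 0.0323).

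With slide as a term Pnmt alone of the 9 still passed, at -3.15 (limma adjusted p = 0.00716), and the others had adjusted p between 0.0793 for Rdh11 and 0.222 for Aldh1a1. That term rests on Top2b-deleted PBS, the only group of 16 h on both slides. With it the SE grew from 0.54 to 0.64 for Aldh1a1 and from 0.22 to 0.29 for Gstm1. Their differences with slide as a term were -1.69 ± 0.44 (SE) for Ahr, -1.66 ± 0.64 for Aldh1a1, -1.26 ± 0.31 for Rdh11, -0.91 ± 0.28 for Gstm3, -0.78 ± 0.29 for Gstm1, 1.63 ± 0.42 for Aldh18a1, 1.21 ± 0.33 for Cyp51 and 0.86 ± 0.29 for Cyp4f16. Groups of 3 arrays were too small for a search for outlying arrays.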

How the results depend on the processing

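At 72 h the wild-type differences that chose the 9 genes ranged over 23 settings between 1.38 and 3.62 for Ephx1, 2.64 and 3.90 for Inmt and 1.41 and 3.91 for Cyp1b1; the median of the 9 was 1.68 with normexp and quantile normalization, against 2.84. Their direction was fixed by the choice. At 16 h the count of 4 became 0 with the genotype field in place of the title (5 at an unadjusted p under 0.05, limma), as did the 27 other pathway genes (16 unadjusted). Where field and title conflict, the Top2b level went with the title. Cyp1b1 also lost its call with all 24 arrays in 1 fit. With the 1 doxorubicin array of the controls' Y-linked status the log2 difference was 1.08 for Aldh1a1 and 0.84 for Fmo2, without a test. The Top2b-deleted count under PBS (1) was 0 with normexp and quantile, no filter, slide as a block, the replicate block, the genotype field, Y-linked status as a covariate or slide 1 only, and 0 to 1 with single arrays left out: it was 1 without wild-type PBS replicate 2, wild-type doxorubicin arrays or Top2b-deleted doxorubicin replicate 1. After doxorubicin (4) it was 2 with no filter, 0 with slide as a block or the genotype field, 1 with all 24 arrays, and 0 to 7 with single arrays left out (2, 1 and 0 without Top2b-deleted doxorubicin replicates 1, 2 and 3). The difference of responses (2) gave 1 with the deposited table or the Y-linked covariate, 0 with no filter, slide as a block, the genotype field or all 24 arrays, and 0 to 4 with single arrays left out. It was 0 without wild-type PBS replicate 2 or 3, Top2b-deleted PBS replicate 1 or 2, Top2b-deleted doxorubicin replicate 2 or 3, or wild-type doxorubicin replicate 2, and 1 without wild-type PBS replicate 1 or Top2b-deleted PBS replicate 3.

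The 8 other pathway genes of 72 h became 17 with normexp and quantile, 0 with no filter or the Y-linked covariate, 32 with slide as a block, 34 with the replicate block and 31 with all 24 arrays. Leaving out single arrays gave 0 to 17, with 0 without wild-type PBS replicate 2 or 3, wild-type doxorubicin replicate 3 or 4, or Top2b-deleted PBS replicate 2 or 3. Without the Top2b-deleted doxorubicin arrays of replicates 3 and 4 it was 5 and 1, 3 without replicate 4 of Top2b-deleted PBS, 13 without replicate 2 of either doxorubicin group and 17 without wild-type PBS replicate 4. The cause was not tested. Signs turned at 16 h for genes that did not pass. In wild-type cells Ephx1 was -0.48, Fmo1 -1.39 and Cyp26b1 -0.26 within 1 Y-linked status, and Fmo1 -0.68 and Cyp26b1 -0.27 with the Y-linked covariate. With single arrays left out Fmo1 ranged from -0.32 to 0.94 and Cyp26b1 from -0.14 to 1.65. In Top2b-deleted cells Ephx1 was 0.0368 with normexp and quantile, 0.0771 with the deposited table, 0.0125 with slide as a block or on slide 2 only and 0.44 with the Y-linked covariate, ranging from -0.25 to 0.18 with single arrays left out. Fmo1 was 0.0292, 0.20 and 0.35 with the deposited table, slide (block or slide 2 only) and the covariate, ranging from -0.20 to 0.0132. Same-numbered arrays of different groups had deviations correlated between -0.12 and 0.29 at 16 h. At 72 h these correlations lay between 0.0017 and 0.73 (16 of 18 above 0.1). Such arrays were not treated as pairs in the main fit. The replicate block left the 16 h wild-type count at 4 but raised the 72 h count of other pathway genes from 8 to 34. Genes reported as not passing at 72 h therefore did not pass in a fit without that block. Low signal limits Cyp1a1, Cyp1b1 and Inmt, which several groups did not detect.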
